A study of Rattus norvegicus with 13 samples.

Results

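Rat autosomes were examined at their far ends, the last 10 Mb before the largest window end listed for each of the 20 autosomes in a merged table of meiotic double-strand break (DSB) hotspots. A window was a member when its start lay within 10 Mb below that point. The rule used positions and no strength. It selected 8395 of the 91120 autosomal windows, in a table of 96640 windows in all. The members were 9.21% of the autosomal windows on 7.28% of the autosomal length.

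The 5 libraries came from adult testis and were made by single-stranded DNA sequencing (SSDS) after immunoprecipitation with an antibody against DMC1. 3 libraries were from wild-type rats of the strains SHR/OlaIpcv (SHR), WKY and BN/RIJHsd (BN), of which SHR and WKY have one Prdm9 allele in common and BN another. The other 2 were from SHR rats with genotype Prdm9+/- (KO/wt) or Prdm9-/- (KO/KO). Per the study, the KO/KO male was homozygous for the truncating deletion KO39 and the wild-type SHR male was its littermate, while the deletion carried by the KO/wt rat is not given in the sources used here. Each strain and genotype had 1 library, so no difference between libraries has a replicate check, and no test between them was possible.

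The effect of the deletion on the cDNA is shown because the deletion defines the KO/KO library. Per the study, the genomic deletion KO39 is named for its length in bp and also takes in part of an intron. The cDNA shows only what is missing from the transcript. The stretch of Prdm9 cDNA printed first is that of wild-type SHR, 5′ to 3′, with the 29 bases missing from the KO39 cDNA in capitals and 30 bases on either side, and the second is the same stretch of KO39. The sequences are the study's own cDNA sequences, and the missing bases are placed as far downstream as the alignment allows.
SHR wild-type: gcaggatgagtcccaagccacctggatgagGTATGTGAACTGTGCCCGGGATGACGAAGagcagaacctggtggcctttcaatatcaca
SHR KO39: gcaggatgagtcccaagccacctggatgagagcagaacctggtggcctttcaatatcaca

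PRDM9 is a meiotic histone methyltransferase whose zinc fingers recognise DNA and whose PR/SET domain marks the surrounding nucleosomes on lysines of histone H3, which directs meiotic breaks to those sites. Where PRDM9 is missing, breaks form instead at sites that carry H3K4me3 for other reasons, among them promoters. DMC1 is the recombinase that coats the resected single-stranded DNA, so that SSDS marks where breaks formed and had not yet been repaired. In males of many mammals, crossovers lie toward the chromosome ends more often than near centromeres.

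For each window the deposited table gives a call, 1 or 0, and a strength in each library. A window called in a library is named a hotspot of that library here. Strengths are whole numbers, some of them negative, and their definition and scaling are not given in the sources used here. Each library was therefore scaled to its own autosomal sum, with negative strengths set to 0, and set against the remaining 2546 Mb of autosome. In whole testis, more cells with a break at a site and longer-lasting DMC1 at each break cannot be told apart. The number of reads is unknown, and the 95% intervals given here cover counting error only.

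Hotspots were denser at the far ends than on the rest of the autosomes in all 5 libraries, most of all in KO/KO. In KO/KO this was not particular to the last 10 Mb, since calls per Mb from 10 to 12 Mb were 1.86 times the rest. The other libraries are given with the border below. Of the members, 1723 were called in wild-type SHR, or 20.5%, against 21.8% of all autosomal windows. In WKY, 2854 members were called, or 34.0%, against 38.3% of all autosomal windows. In BN there were 1500, or 17.9%, against 20.8%. The shares of members called were thus below the background in the 3 wild-type libraries, while the ends held more windows of any kind, 41.98 per Mb against 32.5. In KO/wt, 1788 members were called, or 21.3%, against a background of 21.6%. KO/KO stood apart, with 3757 members called, or 44.8%, against 38.8%. Of the 35375 autosomal KO/KO hotspots, 10.6% lay in the last 10 Mb (Wilson 95% interval 10.3 to 10.95%). The corresponding share of SHR hotspots was 8.66% (8.28 to 9.06%), that of KO/wt 9.10% (8.71 to 9.51%), that of WKY 8.18% (7.90 to 8.48%) and that of BN 7.90% (7.52 to 8.29%). All 5 shares were above the 7.28% of length that the ends cover, and the interval of KO/KO lay above those of the other 4 libraries. Among hotspots at or above each library's autosomal median strength that separation was lost against SHR and WKY. The shares were then 8.91% in KO/KO (8.50 to 9.34%), 8.33% in SHR (7.80 to 8.89%), 8.13% in WKY (7.73 to 8.55%), 7.81% in KO/wt (7.30 to 8.36%) and 7.53% in BN (7.02 to 8.07%). The order of KO/wt and SHR was thereby reversed, and the interval of BN included the 7.28% of length.

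Per Mb, wild-type SHR had 8.62 hotspots in the last 10 Mb and 7.14 on the rest, a ratio of 1.21. The ratio was 1.14 in WKY, with 14.3 against 12.6 hotspots per Mb. BN had the smallest ratio, 1.09, from 7.50 against 6.87 hotspots per Mb. With 1 copy of Prdm9 (KO/wt) the ratio was 1.27, from 8.94 against 7.01. Without Prdm9 it was 1.51, from 18.8 against 12.4.

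Scaled strength was raised at the ends by less than the calls in the Prdm9-mutant rats. The last 10 Mb held 8.64% of the autosomal strength in SHR, 8.41% in WKY, 8.05% in BN, 8.03% in KO/wt and 9.38% in KO/KO. Relative to the rest, strength per Mb was 1.20 times as high in SHR, 1.17 in WKY, 1.11 in BN, 1.11 in KO/wt and 1.32 in KO/KO. Strength has no counting error that could be computed. When each autosome was left out in turn, an alternative added after the data were seen, the ratio stayed between 1.17 and 1.24 in SHR, 1.13 and 1.20 in WKY, 1.08 and 1.14 in BN, 1.08 and 1.14 in KO/wt, and 1.27 and 1.36 in KO/KO. The KO/KO ratio was the highest in every one of these sets.

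The single hotspots at the ends were weaker than elsewhere in the mutants and of similar strength in the wild types. The median strength of KO/KO hotspots was 53 in the last 10 Mb (order-statistic 95% interval 51 to 55) and 65 on the rest. In KO/wt it was 61 (58 to 63) against 71. The median of SHR hotspots was 70 (66 to 73) against 73, that of BN hotspots 68 (64 to 71) against 71 and that of WKY hotspots 209 (199 to 217) against 210. The upper tail moved in the same way. In KO/wt the 90th percentile was 234 at the ends and 286 on the rest, and in KO/KO 185 against 221, whereas SHR had 231 against 221. More hotspots of lower strength thus made up the KO/KO signal at the ends. Members that were not called had median strengths of 3 in SHR, 21 in WKY, 8 in BN, 8 in KO/wt and 3 in KO/KO.

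Most members belonged to a single library, as windows elsewhere did. Of the 8395, 6376 were called in 1 library, or 75.95% against 75.28% on the rest. There were 845 called in 2, or 10.1% against 8.28%, and 1141 called in 3, or 13.6% against 15.96%. In 4 libraries 32 were called, and 1 in all 5. Those called in KO/KO alone were 3404, or 40.6% of members, against 35.9% of the windows on the rest of the autosomes. Windows called in WKY, SHR and KO/wt and nowhere else, the sites of the allele those strains share, were 1108, or 13.2%, against 15.7%. Sites called in BN alone were 1436, or 17.1%, against 20.3%, and sites of WKY alone 1281, or 15.3%, against 17.3%. Sites called in both mutants and nowhere else were 268, or 3.19%, against 1.70%. Smaller classes of the SHR and WKY allele were mixed. Windows of SHR alone were 1.43% against 0.827%, of SHR and KO/wt 1.57% against 1.25%, and of SHR and WKY 3.65% against 3.56%. Those of WKY and KO/wt were 0.989% against 1.28%. The mixture at the ends therefore held relatively more windows of KO/KO alone and relatively fewer of the largest classes of either Prdm9 allele. A lower share of the mixture is not a lower density per Mb. Overlap between windows was more frequent than elsewhere, at 19.6% of members against 17.2%, and strengths of overlapping windows share signal.

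**Figure D1:**
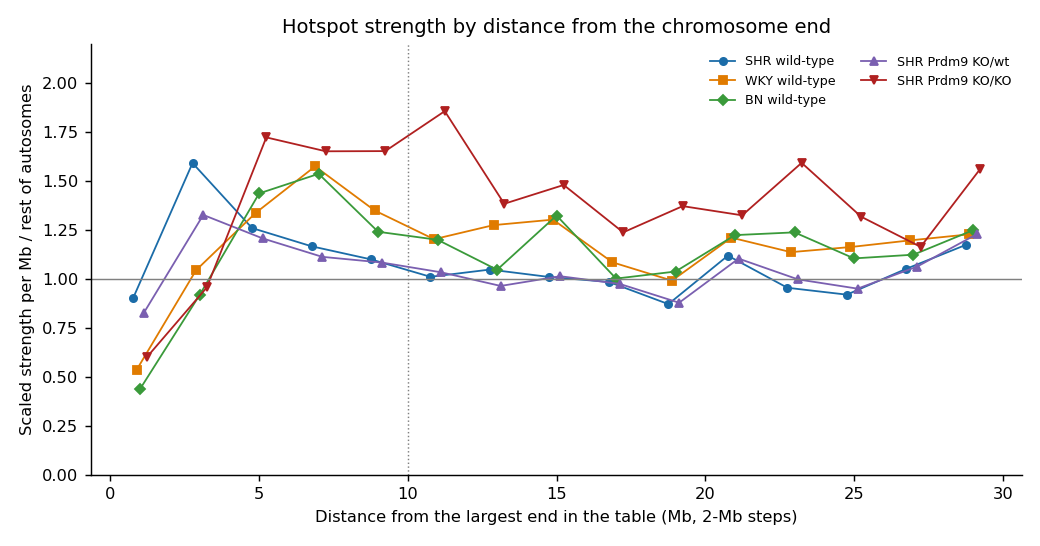
Scaled hotspot strength per Mb divided by that on the rest of the autosomes (vertical axis) against distance from the largest end in the table (horizontal axis, 2-Mb steps, libraries drawn slightly apart), 1 line per library, with the 10-Mb border dotted. SHR peaks at 1.59 in the step from 2 to 4 Mb, WKY and BN peak at 1.57 and 1.54 in the step from 6 to 8 Mb, and all 5 libraries lie below 1 in the last 2 Mb.

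The last 10 Mb were not uniform. In the 2 Mb nearest the end, scaled strength per Mb was below that of the rest of the autosomes in every library. It was 0.90 times the rest in SHR, 0.83 in KO/wt, 0.60 in KO/KO, 0.54 in WKY and 0.44 in BN. Windows were also fewer there, at 26.9 per Mb, than in the next step, at 37.4, and than between 4 and 10 Mb, where each step held from 48.1 to 49.3 per Mb.

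The step from 2 to 4 Mb separated wild-type SHR and KO/wt from WKY, BN and KO/KO. Its scaled strength per Mb was 1.59 times the rest in wild-type SHR and 1.33 times in KO/wt, the highest value of either library within 30 Mb of the end. The same step was at 1.05 in WKY, 0.92 in BN and 0.96 in KO/KO. These 3 values lie close to 1, and those of WKY and KO/KO crossed it when 1 chromosome was left out, to 0.99 without chromosome 4 in WKY and to 1.00 without chromosome 14 in KO/KO.

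Further in, the order of the libraries changed. From 4 to 6 Mb strength per Mb was 1.26 times the rest in SHR, 1.34 in WKY, 1.44 in BN, 1.21 in KO/wt and 1.72 in KO/KO. From 6 to 8 Mb WKY reached 1.57, BN 1.54 and KO/KO 1.65, while SHR was at 1.17 and KO/wt at 1.11. The highest steps of WKY and BN, which carry different Prdm9 alleles, therefore coincided, whereas those of SHR and WKY, which share an allele, did not. With 1 library per strain this difference was not tested.

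Calls per Mb were also below the rest nearest the end in WKY and BN. In the last 2 Mb, 301 hotspots of SHR, 354 of WKY, 121 of BN, 269 of KO/wt and 527 of KO/KO were called. Per Mb these were 1.05 times the rest in SHR, 0.70 in WKY, 0.44 in BN, 0.96 in KO/wt and 1.06 in KO/KO. The intervals included 1 in SHR (0.94 to 1.18), KO/wt (0.85 to 1.08) and KO/KO (0.97 to 1.15). BN had the fewest relative to its own genome. Between 2 and 4 Mb the ratio was 1.38 in SHR, 1.30 in KO/wt, 1.24 in KO/KO, 1.07 in WKY and 0.99 in BN, and the last of these was 1.03 without chromosome 20. Between 6 and 8 Mb it was 1.28 in SHR, 1.42 in KO/wt, 1.65 in KO/KO, 1.36 in WKY and 1.53 in BN.

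The hotspots nearest the end were also the weakest of the last 10 Mb in 3 libraries. Median strength in the last 2 Mb was 39 in KO/KO, 157 in WKY and 56 in BN, and in the step from 8 to 10 Mb it was 59, 215.5 and 73. KO/wt went the other way, with 74 in the last 2 Mb and 55 from 8 to 10 Mb. SHR had 66 in the last 2 Mb, 79 from 2 to 4 Mb and 70 from 8 to 10 Mb.

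**Figure D2:**
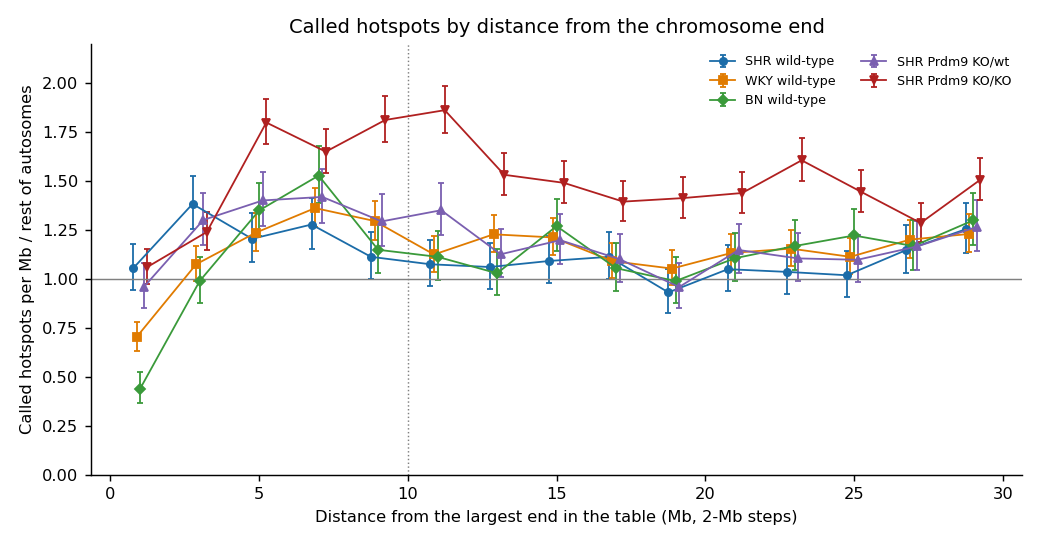
Called hotspots per Mb divided by those per Mb on the rest of the autosomes (vertical axis) against distance from the largest end in the table (horizontal axis, 2-Mb steps), with bars for the Wilson 95% interval of the share of hotspots in each step and the 10-Mb border dotted. KO/KO lies above the other libraries from 4 Mb inward, at 1.80 between 4 and 6 Mb and 1.86 between 10 and 12 Mb, and BN is the lowest in the last 2 Mb, at 0.44.

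The border at 10 Mb was a choice and not a step in the data. Just inside it, from 8 to 10 Mb, strength per Mb was 1.10 times the rest in SHR, 1.35 in WKY, 1.24 in BN, 1.08 in KO/wt and 1.65 in KO/KO. Just outside it, from 10 to 12 Mb, the values were 1.01, 1.20, 1.20, 1.03 and 1.86 in the same order. KO/KO was thus higher outside the border than in any step within it, and it stayed between 1.16 and 1.59 in each further step out to 30 Mb. Wild-type SHR lay between 0.87 and 1.17 over the same steps. Calls per Mb were raised beyond the border too, from 10 to 12 Mb at 1.86 times the rest in KO/KO and 1.35 in KO/wt. WKY was at 1.125, BN at 1.113 and SHR at 1.075, and the intervals of BN and SHR included 1. From 10 to 30 Mb the steps lay between 1.29 and 1.86 in KO/KO, 1.05 and 1.23 in WKY and 0.99 and 1.30 in BN. Those of SHR lay between 0.93 and 1.25 and those of KO/wt between 0.96 and 1.35. The rest against which all ratios were taken includes this region. At the opposite tips the first 10 Mb of the autosomes held 5852 windows and 6.74% of the KO/KO strength, against 9.38% in the last 10 Mb. In SHR they held 7.04%, against 8.64%. Rat chromosome numbering starts at the short arm, so the first 10 Mb of several autosomes lie near a centromere.

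**Figure D3:**
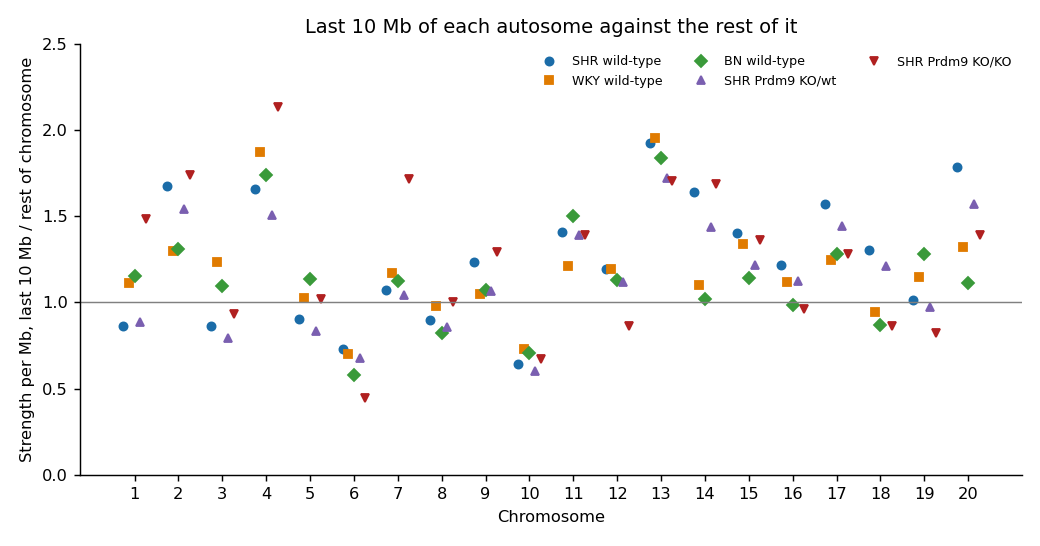
Strength per Mb in the last 10 Mb divided by that on the rest of the same chromosome (vertical axis) for each of the 20 autosomes (horizontal axis), 1 point per library. Chromosomes 6 and 10 lie below 1 in all 5 libraries, chromosomes 4 and 13 lie at 1.51 or above in all 5, and KO/KO reaches 2.13 on chromosome 4.

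Chromosome ends differed widely from each other within every library. Taken against the rest of its own chromosome, strength per Mb in the last 10 Mb was above 1 on 14 of 20 autosomes in SHR, 16 in WKY, 15 in BN, 13 in KO/wt and 13 in KO/KO. For calls the numbers were 15, 15, 14, 14 and 19. The same 2 chromosomes were the lowest for strength in every library. On chromosome 10 the ratio was 0.64 in SHR, 0.73 in WKY, 0.71 in BN, 0.60 in KO/wt and 0.67 in KO/KO. On chromosome 6 it was 0.73 in SHR, 0.70 in WKY, 0.58 in BN, 0.68 in KO/wt and 0.45 in KO/KO.

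Chromosome 13 had the highest ratio in SHR, at 1.93, in WKY, at 1.96, in BN, at 1.84, and in KO/wt, at 1.72. In KO/KO it was at 1.70, behind chromosome 4, at 2.13, chromosome 2, at 1.74, and chromosome 7, at 1.72. The second highest chromosome was 20 in SHR, at 1.78, and in KO/wt, at 1.57, and 4 in WKY, at 1.87, and in BN, at 1.74. Calls of KO/KO on chromosome 4 were 2.78 times as dense at the end as on the rest, the highest value of any chromosome and library, and on chromosome 7 they were 2.07 times as dense.

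The Prdm9 mutants were then set against SHR chromosome by chromosome. The strength ratio of KO/wt was higher than that of SHR on 1 of 20 chromosomes. That of KO/KO was higher on 10 of 20 and lower on the other 10. The widest difference upward was on chromosome 1, at 1.48 in KO/KO against 0.86 in SHR, and downward on chromosome 6, at 0.45 against 0.73. For calls, KO/wt was higher than SHR on 12 of 20 and KO/KO on 13 of 20.

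**Figure D4:**
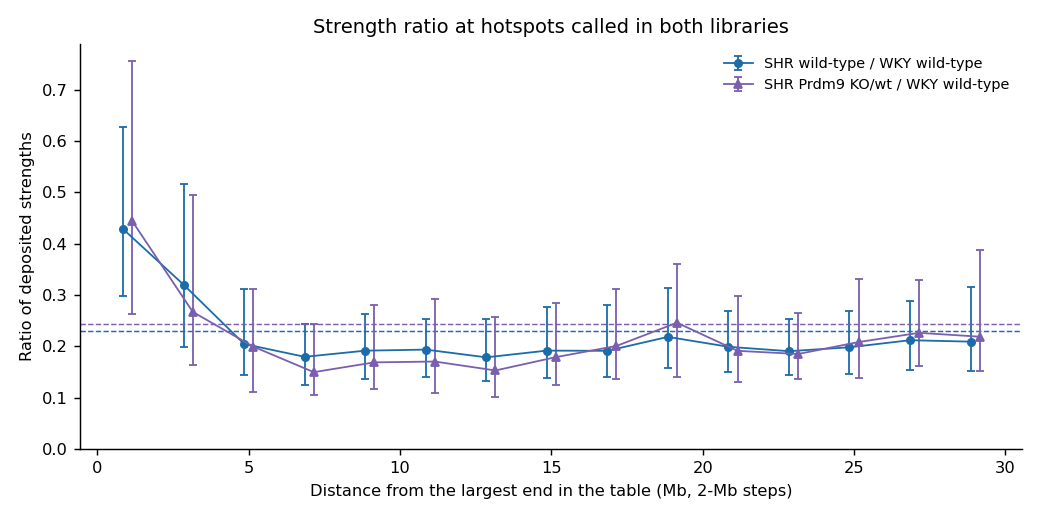
Ratio of deposited strengths at hotspots called in both libraries (vertical axis) against distance from the largest end in the table (horizontal axis, 2-Mb steps), for wild-type SHR over WKY and KO/wt over WKY. Points are medians, bars span the quartiles and dashed lines give the median on the rest of the autosomes; the SHR to WKY ratio falls from 0.43 in the last 2 Mb to 0.18 between 6 and 8 Mb, around a dashed line at 0.23.

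SHR and WKY share their Prdm9 allele, and hotspots called in both allow their strengths to be compared site by site. The absolute ratio has no meaning, since the scales are unknown. Its change along the chromosome was read on the assumption that the scales differ by a constant factor, which was not tested. Sites too weak to be called in either library are left out, and the effect of this selection on the ratio was not tested either. In the last 2 Mb the median ratio of SHR to WKY strength was 0.429 (0.389 to 0.477, 234 hotspots). From 2 to 4 Mb it was 0.320 (0.292 to 0.350, 320 hotspots). Both were above the 0.230 of the rest of the autosomes (0.229 to 0.233, 16352 hotspots). From 4 to 6 Mb the median was 0.204, from 6 to 8 Mb 0.179 and from 8 to 10 Mb 0.191, all below the rest. Over the whole 10 Mb these departures cancelled, to 0.231.

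The change lay mostly in WKY in the last 2 Mb and mostly in SHR in the next step. In the last 2 Mb the shared hotspots had a median strength of 183.5 in WKY and 79 in SHR. From 2 to 4 Mb the medians were 304 and 91.5, and on the rest of the autosomes 333 and 75. Over the last 4 Mb the ratio was 1.57 times that of the rest, and it was higher than on the rest of the same chromosome on 19 of 20 autosomes. The exception was chromosome 5, at 0.83 times, and the highest was chromosome 18, at 3.23 times, with 14 or more hotspots on each chromosome.

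KO/wt showed a similar rise against WKY in the last 2 Mb, but not clearly from 2 to 4 Mb. Its median ratio was 0.444 in the last 2 Mb (0.3871 to 0.4965), 0.267 from 2 to 4 Mb (0.2317 to 0.2929), 0.149 from 6 to 8 Mb and 0.244 on the rest. The interval from 2 to 4 Mb thus included the value of the rest. Between SHR and KO/wt themselves, the ratio was 0.985 in the last 2 Mb and 1.18 from 2 to 4 Mb. Over the last 10 Mb it was 1.11 (1.07 to 1.14), against 0.956 on the rest. A ratio above that of the rest was not particular to the last 10 Mb, since it was 1.09 from 10 to 12 Mb, 1.22 from 12 to 14 Mb and 1.07 from 14 to 16 Mb.

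SHR hotspots were called in WKY less often at the ends than elsewhere. Of the 1723 SHR hotspots there, 1452 were called in WKY, or 84.3% (82.5 to 85.9%), while 89.5% of all autosomal SHR hotspots were. In the last 2 Mb the share was 78.1% and from 2 to 4 Mb 81.01%, and in the 3 steps further in it lay between 86.6 and 88.4%. For the SHR hotspots at or above the autosomal median strength, the share was 90.4% in the last 10 Mb and 92.8% on the rest, a smaller gap. By step it was 91.6, 90.7, 90.3, 89.3 and 90.3% from the end inward, so the fall toward the end was absent among these stronger hotspots. Viewed from WKY, the last 10 Mb as a whole were at 50.9%, against 51.1% on the rest, and the trend within them was opposite. Of the WKY hotspots, 66.4% of those in the last 2 Mb were called in SHR, 59.1% from 2 to 4 Mb, 48.9% from 4 to 6 Mb, 46.1% from 6 to 8 Mb and 42.5% from 8 to 10 Mb. Without chromosome 6, described below, the values were 65.9, 58.9, 49.6, 49.1 and 48.9%, so that the decline levelled off beyond 4 Mb. The last 10 Mb as a whole were then at 53.2%, 1412 of 2654 WKY hotspots. The rest of the autosomes was not recomputed without chromosome 6. BN hotspots at the ends were called in WKY in 34 of 1500 cases, or 2.27% (1.63 to 3.15%), against 2.94% of all autosomal BN hotspots. With any overlap of windows counted as shared, the BN share was 10.6% at the ends and 11.3% on the rest.

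Hotspots of the knockout appeared in KO/wt more often at the ends. KO/KO marks the default sites that are used without PRDM9. Of the 1788 KO/wt hotspots in the last 10 Mb, 313 were also called in KO/KO, or 17.5% (15.8 to 19.3%), against 10.3% of all autosomal KO/wt hotspots. In wild-type SHR, 35 of 1723 were, or 2.03% (1.46 to 2.81%), against 1.34%. In BN, 27 of 1500 were, or 1.80% (1.24 to 2.61%), against 1.03%, so a higher share was not particular to the SHR genotypes. KO/KO hotspots were themselves 1.51 times as dense per Mb at the ends as on the rest. How much of the higher shares goes with that density was not tested. The count in KO/wt was low in the last 2 Mb, at 8 of 269, or 2.97%, and high from 4 to 6 Mb, at 23.9%, and from 6 to 8 Mb, at 23.1%. The region just outside the border was higher still, with 29.8% from 10 to 12 Mb. These levels depended on the definition, though the ends stayed above the rest in KO/wt and SHR. With any overlap of windows counted as shared, 29.98% of KO/wt hotspots were shared with KO/KO at the ends and 18.01% on the rest, and 11.6% and 7.98% of SHR hotspots were. Of KO/wt hotspots at or above the autosomal median strength, 7.26% were called in KO/KO at the ends and 3.32% on the rest. The values were 1.20 and 0.738% for SHR hotspots, and 0.553 and 0.663% for BN hotspots.

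The same 313 windows were 8.33% of the KO/KO hotspots in the last 10 Mb (7.49 to 9.26%), against 5.7% of all autosomal KO/KO hotspots. By step the share was 1.52, 7.47, 10.5, 11.2 and 8.11% from the end inward. Strong default sites were shared more often. Of the KO/KO hotspots at or above the autosomal median strength, 18.2% were called in KO/wt at the ends and 9.45% on the rest, and in the last 2 Mb 6 of 130 were, or 4.62%. At windows called in both mutants and above 0 in both, the median ratio of KO/KO to KO/wt strength was 4.77 in the last 10 Mb and 6.08 on the rest.

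**Figure D5:**
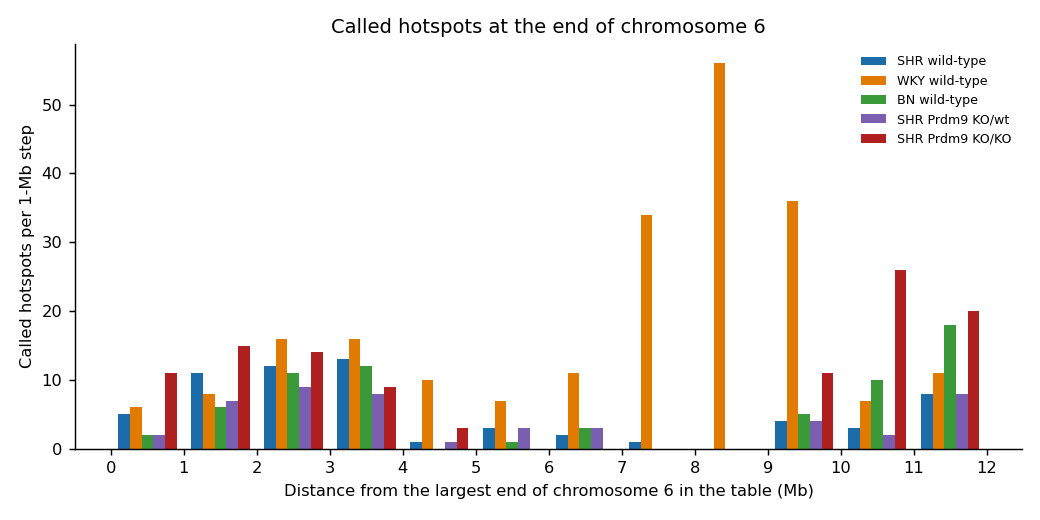
Called hotspots per 1-Mb step (vertical axis, bars by library) against distance from the largest end of chromosome 6 in the table (horizontal axis). WKY has 34, 56 and 36 calls in the 3 steps from 7 to 10 Mb, where the other libraries have between 0 and 11.

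The end of chromosome 6 held a block of windows called almost entirely in WKY. Between 7 and 10 Mb from the end (rn5 chr6:146865106-149842331, no strand), 126 of 143 windows were called in WKY, 122 of them in WKY alone. In the same block 5 windows were called in SHR, 5 in BN, 4 in KO/wt and 11 in KO/KO. All 34 windows from 7 to 8 Mb and all 56 from 8 to 9 Mb were called in WKY. This was 42 WKY calls per Mb, against 13.1 on the rest of chromosome 6. They were weak for WKY. Their median strength was 119, from 6 to 512, while WKY hotspots on the rest of the chromosome had a median of 215. In the other libraries the median strength at these sites was 6 in SHR, 9 in BN, 12 in KO/wt and 7 in KO/KO. Weak WKY calls also prevailed nearer the end, among fewer windows. In the 1-Mb steps from 4 to 7 Mb, 10 of 13, 7 of 7 and 11 of 14 windows were called in WKY. Their median strengths were 80.5, 103 and 104, and SHR had 1, 3 and 2 calls in these steps. The block raised the WKY call ratio of chromosome 6 to 1.53, against 0.67 in SHR, although the strength ratio was below 1 in both. Without chromosome 6 the call ratio of WKY in the last 10 Mb was 1.11 in place of 1.14. In the steps from 6 to 8 and from 8 to 10 Mb over all chromosomes it was 1.34 and 1.18 in place of 1.36 and 1.30. Whether these WKY calls mark meiotic breaks was not tested, and the WKY input library was not analysed here.

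The strongest hotspots at the ends were strain-specific or shared as the alleles are, with exceptions. The strongest member in SHR lay on chromosome 11 (rn5 chr11:84060598-84063598), 9.45 Mb from the end, with strengths of 1220 in SHR, 1896 in KO/wt, 45 in WKY, -6 in BN and 8 in KO/KO. It was called in SHR and KO/wt and not in WKY, although SHR and WKY have the same Prdm9 allele. It was also the strongest member in KO/wt. In WKY the strongest member was on chromosome 16 (chr16:84725244-84728244), 5.31 Mb from the end, at 3154. It was called in SHR and KO/wt too, but at strengths of 65 and 37.

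The strongest member in BN was on chromosome 20 (chr20:51625967-51628967), with a strength of 1283 in BN and between -2 and 29 in the other libraries. It overlapped a neighbouring window. In KO/KO it was on chromosome 14 (chr14:107870145-107873145), 7.14 Mb from the end. Its strengths were 109 in SHR, 180 in WKY, 63 in BN, 525 in KO/wt and 1561 in KO/KO. This was the only autosomal window called in all 5 libraries.

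Within the last 2 Mb the strongest hotspot of both SHR and KO/wt lay on chromosome 8 (chr8:131102020-131105020), at 586 in SHR, 970 in KO/wt and 881 in WKY. That of WKY lay on chromosome 3 (chr3:183318867-183321867), 0.161 Mb from the end, at 960 in WKY and 270 in SHR. That of BN lay on chromosome 14 (chr14:113295632-113298632), at 418 in BN and at most 23 elsewhere. That of KO/KO lay on chromosome 11 (chr11:93462962-93465962), 0.0434 Mb from the end, at 929 in KO/KO, 186 in WKY and 30 or less in the other 3. The value of 186 in WKY was not a called hotspot, and both this window and the one on chromosome 3 overlap a neighbour.

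Members called in 4 or more libraries were few, as on the rest of the autosomes. There were 20 called in all 3 wild-type strains and 33 called in at least 4 libraries, or 38 with either property. Those called in 4 libraries were 0.381% of members, against 0.476% on the rest. For windows called in all 3 wild-type strains the share on the rest was not computed, so their count is not set against a background. Among those called in SHR, WKY, BN and KO/wt, one on chromosome 9 (chr9:117079084-117082084) had strengths of 218 in SHR, 813 in WKY, 145 in BN, 98 in KO/wt and 4 in KO/KO. One on chromosome 17 (chr17:89038547-89041547) had 119, 506, 209, 80 and 5 in the same order. Both were near the uncalled level in KO/KO. A second kind was called in SHR, WKY, KO/wt and KO/KO and not in BN. On chromosome 14 (chr14:105923215-105926215) its strengths were 173 in SHR, 327 in WKY, 250 in KO/wt and 194 in KO/KO, against -4 in BN. On chromosome 1 (chr1:281443980-281446980) the strengths were 38 in SHR, 120 in WKY, 158 in KO/wt and 384 in KO/KO, against 17 in BN. At both windows wild-type SHR was the lowest of the 3 SHR genotypes. At the 3 other named windows of this kind, on chromosomes 13, 2 and 17, KO/KO was the lowest. Its strengths there were 47, 42 and 58, against 143, 214 and 115 in wild-type SHR.

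KO/KO hotspots came closest to the listed chromosome ends. From the last hotspot to the largest end in the table, the median distance over 20 chromosomes was 163 kb in SHR, 13.5 kb in WKY, 474 kb in BN, 144 kb in KO/wt and 0 in KO/KO. A window called in KO/KO set the end itself on 14 of 20 chromosomes, one called in WKY on 7, in SHR on 1, in KO/wt on 1 and in BN on 0. Because the end was defined by these windows, the distances describe the table and not the true chromosome ends. KO/KO and WKY also had the most autosomal hotspots, 35375 and 34872, against 19898 in SHR, 19643 in KO/wt and 18995 in BN. The distances were not corrected for the number of calls. On chromosome 1 the last KO/KO hotspot (chr1:290085429-290088429) had a strength of 52, and the last SHR hotspot (chr1:289916069-289919069) one of 34. On chromosome 6 the last KO/KO hotspot (chr6:156854747-156857747) had 82, and the last SHR hotspot (chr6:156835896-156838896) had 53.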

How the data were processed

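DMC1 SSDS was compared in 5 libraries, 1 per strain and genotype. H3K4me3 and input libraries were not analysed here. Calls rest on the authors' rn5 alignment (bwa 0.7.12, modified for this assay). Reads without a unique position did not count toward a hotspot, so breaks in repeats can be missed. The submitters' processing notes also name MACS2 2.1.0.20150420 and bedtools 2.23.0. rn5 derives from a BN rat, so reads of SHR and WKY were aligned to the sequence of another strain. The authors' deposited table gives for each window a strength, treated as a score, and a call of 1 or 0. How strength was computed and normalized and how calls were merged into windows are not given in the sources used here.

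Members were chosen by position, and the members and steps were chosen with earlier results of these data known. Strengths below 0 were set to 0 and each library was divided by its autosomal sum. Values per Mb were computed in steps of 2 Mb and divided by those of the rest of the autosomes. The end of a chromosome was the largest window end in the table. Sharing meant that 1 window carried a call in each of the libraries compared. Strength ratios used windows called in both libraries with both strengths above 0. Shares have Wilson 95% intervals over hotspots and medians have order-statistic intervals. These cover counting error only, and windows are not replicates. Named windows were the strongest of each library in the last 10 and last 2 Mb, windows called in all 3 wild types or in at least 4 libraries (at most 10, ordered by the number of libraries and then by summed scaled strength), and the last SHR and KO/KO hotspots on the chromosomes where the strength ratios of KO/KO and SHR differed most. Of these 10, 5 are given with their positions and 3 more by chromosome only.

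The scripts ran under Python 3.11.15. They used pandas 2.3.3 and numpy 2.4.6 for the values, matplotlib 3.10.9 for the plots and scipy 1.17.1 for the intervals, and were tested on simulated data. The alternatives were negative strengths kept, a cap at the 99th percentile, called windows only, stronger hotspots only, windows that overlap no other, mean in place of median, any overlap as sharing, and chromosomes 12 and 20 left out. Leaving out each autosome, and chromosome 6 alone by step, were added after the data were seen. Genes and promoters near the windows were not analysed here, since no rn5 annotation was used.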

Additional observations from a re-analysis of the deposited data

Results flagged for a closer look

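Near the ends some libraries lay on the other side of the rest of the autosomes from wild-type SHR. With 1 library for each strain and genotype, none of these differences was tested. From 2 to 4 Mb, scaled strength per Mb was 1.59 times the rest in SHR and 0.919 times in BN and 0.957 times in KO/KO. Calls per Mb in the same step were 1.38 times the rest in SHR and 0.989 times in BN. In the last 2 Mb, calls per Mb were 1.05 times the rest in SHR, 0.704 times in WKY, 0.440 times in BN and 0.959 times in KO/wt. The intervals of SHR (0.942 to 1.18) and KO/wt (0.852 to 1.08) both include 1 and overlap. The KO/KO strength and the BN calls from 2 to 4 Mb passed 1 when a single chromosome was left out, reaching 1.00 without chromosome 14 and 1.03 without chromosome 20.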

How the results depend on the processing

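No paired analysis was possible because each strain and genotype had 1 library. Of 90 recomputed values, 65 stayed within the counting interval of the value reported and 25 moved beyond it. Where the share of strength was recomputed, the interval was that of a share of as many hotspots. It served there as a yardstick only, since strength has no counting error that could be computed. Whether a value changed direction was not scored. Keeping negative strengths and capping strengths at the 99th percentile moved none of the 10 values each. Without chromosomes 12 and 20 the last 10 Mb held 8.05% of strength in SHR, 7.87% in WKY, 7.59% in BN, 7.49% in KO/wt and 8.76% in KO/KO, and 7.99, 7.72, 7.47, 8.39 and 9.88% of hotspots in the same order. The ends then covered 6.83% of the length, and strength per Mb was 1.19, 1.17, 1.12, 1.10 and 1.31 times the rest. Counting strength of called windows alone, the last 2 Mb held 0.676% in WKY in place of 0.771%, and 0.437% in BN in place of 0.635%. Among hotspots at or above the median strength, the last 10 Mb held 7.81% in KO/wt and 8.91% in KO/KO. The KO/wt share was then below the 8.33% of SHR, whereas among all hotspots it was above, at 9.10% against 8.66%. Windows that overlap no other put 8.86% of the KO/KO strength there, and the mean of KO/KO hotspots was 0.850 times the rest. Among hotspots of the first library at or above its median strength, 90.4% of SHR were called in WKY, 1.20% of SHR and 7.26% of KO/wt in KO/KO, and 18.2% of KO/KO in KO/wt. With any overlap of windows counted as shared, 88.4% of SHR and 10.6% of BN hotspots of the last 10 Mb were shared with WKY, 11.6% of SHR and 29.98% of KO/wt hotspots with KO/KO, and 14.0% of KO/KO hotspots with KO/wt. On the rest of the autosomes these shares were 93.7, 11.3, 7.98, 18.01 and 10.1%.

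Depth in reads is unknown, so a window not called in a library was not shown to lack breaks. The end of each chromosome was set by the windows themselves, mostly by those called in KO/KO, which touches the step nearest the end.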
